A study of Mus musculus with 12 samples.

Results

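HOX genes encode homeodomain transcription factors that lie side by side in 4 clusters, HOXA, HOXB, HOXC and HOXD, and their response to methoxyacetic acid (MAA) was followed in mouse TM3 Leydig cells by microarray. The members are 37 genes measured by 44 probes, of 15972 genes and 41174 probes in all, and were chosen by name. The array files name a probe by the accession of its transcript and spell no HOX symbol, so that 0 probes carried such a name as deposited. The accessions were therefore looked up in the RefSeq gene table of the mouse, which named 22072 probes. Of the 39 HOX genes in that table, Hoxc11 and Hoxd8 were matched by no probe and were not analysed here. The HOXA genes have 14 probes on 11 genes (chromosome 6), HOXB 11 on 10 (chromosome 11), HOXC 9 on 8 (chromosome 15) and HOXD 10 on 8 (chromosome 2).

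Genes at the same place in different clusters descend from 1 ancestor and are numbered as paralogue groups 1 to 13. In the embryo, low-numbered genes are active further forward along the body axis and earlier, high-numbered genes further back and later, and many adult cells keep the HOX pattern of their place of origin. HOX proteins bind DNA with partners of the PBX and MEIS families, retinoic acid and CDX factors set their pattern, and Polycomb and trithorax proteins keep it closed or open. Below, groups 1 to 3 are called anterior, 4 to 8 central and 9 to 13 posterior.

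TM3 is a cell line derived from Leydig cells, the androgen-producing cells of the testis, of an immature mouse. MAA is the active metabolite of an industrial solvent and is toxic to the testis. Cultures were given MAA at a high (5 mM) or a low (1 mM) concentration and harvested after 3, 8 and 24 h. On 2 arrays per condition, 6 conditions in all, they were compared with cultures of the same age in plain medium. Each array compared RNA pooled from 3 cultures, replicate 2 used a separate pool of MAA-treated cultures with the dyes exchanged, and the 12 arrays lay on 3 slides. Error is thus the spread between arrays that differ in pool, dye orientation and slide, not between single cultures. With 2 arrays per condition it is known only roughly. Both concentrations at a time were compared with untreated cells of that time, so their ratios are not independent of each other.

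The values are log2 ratios of MAA-treated over untreated signal, averaged over the 2 arrays of a condition, with the standard error (SE) of limma's fit to all 12 arrays. A probe was called where the unadjusted p was under 0.005 and the change exceeded 2-fold (5 mM) or 1.5-fold (1 mM). Adjusted p-values are limma's after Benjamini-Hochberg correction over all probes. The pair of arrays correlated over all probes at 0.496, 0.630 and 0.644 for 5 mM at 3, 8 and 24 h, but at -0.134, 0.133 and 0.309 for 1 mM, so the ratios of most genes at 1 mM were small beside the difference between the arrays. The Leydig cell genes Star, Cyp17a1, Insl3 and Gata4 were well above background in untreated cells on all 12 arrays, whereas Cyp11a1, Hsd3b1, Hsd3b6 and Lhcgr were so on 0. Nr5a1 was so on 8 arrays and Hsd17b3 on 1. Of the markers of other cell types, 4 of 7 Sertoli, 3 of 5 peritubular myoid and 4 of 5 fibroblast genes were above background on all 12 arrays. So were 2 of the 6 germ cell genes on the array (Ddx4 and Prm1) and 1 of 3 macrophage genes (Lyz2). Of the other germ cell genes, Prm2 was so on 9 arrays, Sycp3 on 5, Dazl on 1 and Acrv1 on 0. The leukocyte gene Ptprc, the macrophage gene Adgre1 and the endothelial genes Cdh5, Kdr and Pecam1 were at 0 of 12 arrays. The other endothelial gene, Tek, was above background on 8.

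Untreated TM3 cells expressed most HOX genes. In the control channel 31 of the 44 probes, from 28 of the 37 genes, were well above background on all 12 arrays, against 23994 of all 41174 probes (58.3%). Among them were Hoxa2, Hoxa3, Hoxa4, Hoxa5, Hoxa7, Hoxa9, Hoxa10 and Hoxa11 of HOXA, Hoxb2 to Hoxb9 and Hoxb13 of HOXB, Hoxc4, Hoxc5, Hoxc6, Hoxc8, Hoxc9, Hoxc10 and Hoxc13 of HOXC, and Hoxd3, Hoxd4 and Hoxd9 of HOXD. By cluster, 10 of 14 probes of HOXA, 9 of 11 of HOXB, 8 of 9 of HOXC and 4 of 10 of HOXD met this rule. The anterior genes Hoxb1 and Hoxd1 and the posterior genes Hoxa13, Hoxc12, Hoxd12 and Hoxd13 were above background on 0 of 12 arrays, Hoxa13 with both of its probes. Hoxd10 was above background on 9 arrays, and Hoxa6 and Hoxd11 on 8. The posterior ends of HOXA and HOXD were thus not detected at this signal, while Hoxb13 and Hoxc13 at the ends of their clusters were. Bulk RNA cannot tell fewer expressing cells from less RNA per cell.

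**Figure D1:**
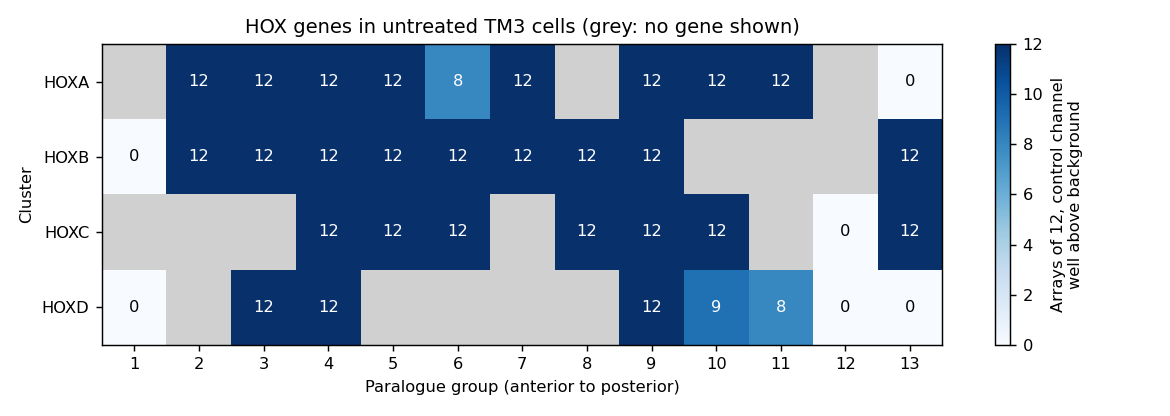
Number of the 12 arrays on which each HOX gene was well above background in the control (untreated) channel, by cluster (rows) and paralogue group (columns), taking the better probe of a gene. HOXB shows 12 from group 2 to group 9 and again at group 13, while HOXD falls to 9 and 8 at groups 10 and 11 and to 0 at groups 12 and 13.

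At 5 mM the expressed HOX genes lay mostly below the untreated level. Over the 31 probes the median log2 ratio was -0.38 at 3 h, -0.46 at 8 h and -0.15 at 24 h, where all 23994 expressed probes had medians of -0.02, -0.02 and -0.07. Both arrays were below 0 for 22, 21 and 19 of the 31 probes at the 3 times, and both above 0 for 7, 5 and 7. This count was not made over all expressed probes. The mean was below 0 for 23, 25 and 24 of the 31, and for 12477, 12532 and 13615 of the 23994 expressed probes. At an adjusted p under 0.05 and any fold, limma found 18 HOX probes lower at 3 h, 20 at 8 h and 11 at 24 h. Of all probes 12.3%, 15.0% and 15.8% were lower by the same rule, and of expressed probes 19.9%, 24.2% and 24.8%. Of the expressed HOX probes, 18, 20 and 9 of 31 (58.1%, 64.5% and 29.0%) were lower, so that the share was well above that of expressed probes at 3 and 8 h and close to it at 24 h. HOX probes higher by this rule numbered 3, 3 and 5, or 6.82%, 6.82% and 11.4% of the 44, where 11.8%, 15.4% and 14.6% of all probes were higher. Without any 1 array the higher counts were 0 to 5, 0 to 3 and 2 to 6, with 0 at 3 h without replicate 1 of that condition and 0 at 8 h without either array of that condition. By alternatives chosen after seeing the data, the counts moved. With each array centred on its median, which moved the median of all probes at 3 h from -0.10 to 0.01, 12 HOX probes were lower at 3 h against 10.1% of expressed probes. Without the 4 arrays of slide 3, 0 HOX probes and 0% of expressed probes passed at any time, and the medians of the 31 probes were -0.37, -0.50 and -0.16. Without slide 1 the counts were 0, 16 and 1 (0%, 13.9% and 1.80% of expressed probes), and without slide 2 they were 10, 4 and 9 (7.31%, 2.61% and 10.8%).

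At 1 mM the medians of the 31 expressed probes were -0.08 at 3 h, -0.07 at 8 h and -0.12 at 24 h, against -0.01, -0.02 and -0.03 for all expressed probes. HOX probes lower at an adjusted p under 0.05 numbered 1, 1 and 5, where 1.91%, 2.13% and 4.66% of all probes were lower. Those higher numbered 0, 0 and 2, where 2.71%, 3.40% and 6.66% of all probes were higher. The 5 lower at 24 h were Hoxa4, Hoxa5, Hoxa9, Hoxb6 and Hoxc6, and the 2 higher were Hoxb13 and Hoxc13. Without either array of 1 mM at 24 h these 5 no longer passed, and nor did most expressed probes that had been lower. The medians of the 31 probes were then -0.07 without replicate 1 and -0.10 without replicate 2. With array medians centred 3 HOX probes were lower and 2 higher, where 1.90% of expressed probes were lower, against 7.13% in the main fit. Hoxa4 was the 1 lower at 3 and 8 h.

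By cluster, HOXD had the lowest medians of the 4 at 5 mM, -0.74 at 3 h, -0.69 at 8 h and -0.90 at 24 h, over its 4 expressed probes, all of which were lower at an adjusted p under 0.05 at all 3 times. The HOXA median was -0.24, -0.45 and -0.11 (10 probes), HOXB -0.55, -0.42 and -0.14 (9 probes) and HOXC -0.43, -0.38 and -0.07 (8 probes). By position, anterior probes had medians of -0.26, -0.48 and -0.16, central -0.55, -0.44 and -0.20 and posterior -0.37, -0.46 and -0.05. At 24 h anterior probes spanned -1.27 to 0.48, central -1.33 to 0.60 and posterior -0.55 to 1.57. Differences between clusters or positions were not tested, since genes of a cluster are not independent samples.

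**Figure D2:**
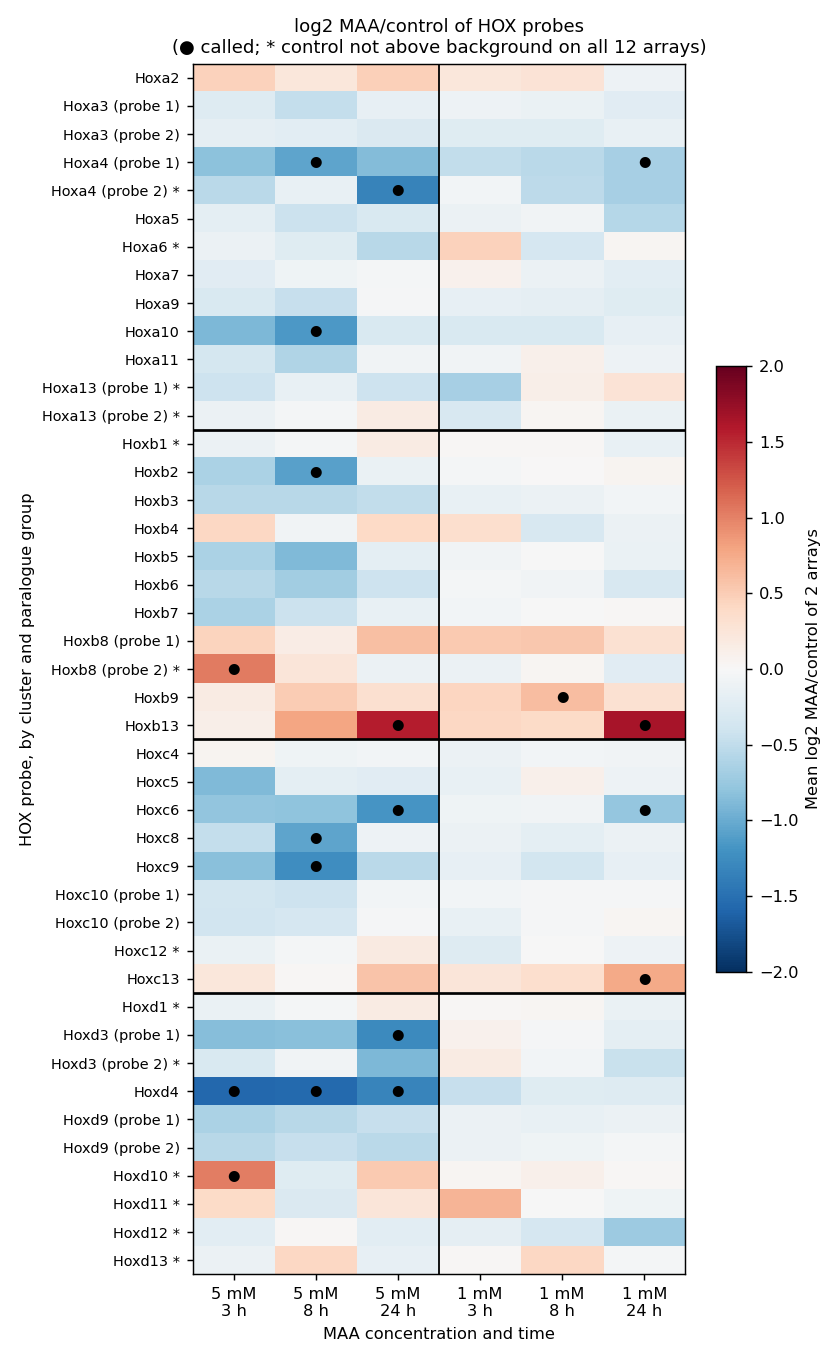
Mean log2 MAA/control of HOX probes (rows, by cluster and paralogue group) in the 6 conditions (columns), with red above and blue below the untreated level. Dots mark called probes, asterisks probes that were not above background in untreated cells on all 12 arrays, and the lowest value is -1.57 for Hoxd4 at 5 mM and 3 h.

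By the rule with the fold threshold, 3, 6 and 5 HOX probes were called at 5 mM at 3, 8 and 24 h, against 3.76%, 5.55% and 5.62% of all probes, which for 44 probes is 6.82%, 13.6% and 11.4%. At 1 mM 0, 1 and 4 were called (0%, 2.27% and 9.09%), against 1.95%, 2.37% and 4.68% of all probes. Of those at 5 mM, 1 of 3 was lower at 3 h, 6 of 6 at 8 h and 4 of 5 at 24 h. Of all probes called at 5 mM, 715 of 1547, 1025 of 2284 and 729 of 2315 were lower. Of the HOX probes called at 1 mM, 0 of 1 was lower at 8 h and 2 of 4 at 24 h, and of all probes 270 of 977 and 582 of 1925. Across the 6 conditions 14 probes from 13 genes were called at least once, and the other 30 were called in none. Of the 13 genes, 11 had a called probe that was expressed in untreated cells on all 12 arrays. The results for these follow by cluster.

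In HOXA, Hoxa4 and Hoxa10 were called, both lower. Hoxa4, which helps to specify cervical vertebrae, was read by probe A_52_P443588 at log2 ratios of -0.71 and -0.93 on the arrays of 5 mM at 3 h, -1.20 and -0.90 at 8 h and -0.74 and -1.0 at 24 h. At 1 mM it stood at -0.47 and -0.52, -0.48 and -0.59, and -0.70 and -0.62. All 12 arrays were below 0, and those of the 2 concentrations did not overlap at any time, although the difference between them did not pass (adjusted p = 0.345, 0.0659 and 0.478). It was 2.07-fold lower at 5 mM and 8 h (log2 -1.05, SE 0.101, adjusted p = 0.000205) and 1.58-fold lower at 1 mM and 24 h (log2 -0.66, adjusted p = 0.00745), the 2 conditions where it was called. Its adjusted p was under 0.05 in all 6 conditions, which held for no other HOX probe. The call at 5 mM was lost without replicate 1 of that condition, without slide 2 and with normexp background correction, and that at 1 mM without replicate 1 of its condition, without slide 1 or 2 and with normexp.

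Hoxa10, a posterior gene needed for the reproductive tract of both sexes, stood at -0.83 and -0.95 at 3 h, -1.06 and -1.23 at 8 h and -0.16 and -0.44 at 24 h of 5 mM. The arrays at 24 h lay above all of those at 3 and 8 h. It was called at 8 h, 2.21-fold lower (log2 -1.15, SE 0.102, adjusted p = 0.000146), and its values at 1 mM lay between -0.42 and -0.07. Of the HOXA genes that were called nowhere, Hoxa9 was lower at 5 mM at 3 and 8 h (log2 -0.30 and -0.46, SE 0.0531) but not at 24 h (log2 -0.03). Hoxa5 and Hoxa11 were lower by adjusted p at 8 h of 5 mM, with log2 ratios of -0.44 and -0.61. So was Hoxa3 by 1 of its 2 probes (log2 -0.48), the other being at -0.20 (adjusted p = 0.397). Hoxa2, an anterior gene that acts in the hindbrain, read 0.69 and 0.24 at 3 h, 0.25 and 0.20 at 8 h and 0.54 and 0.42 at 24 h of 5 mM. It was above 0 on all 6 arrays and higher by adjusted p at 3 and 24 h (log2 0.46 and 0.48, SE 0.137, adjusted p = 0.0449 and 0.0338), but at 3 h not without replicate 1.

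In HOXB, the expressed probes of Hoxb2, Hoxb3, Hoxb5, Hoxb6 and Hoxb7 had mean ratios below 0 at every time of 5 mM, and those of Hoxb8, Hoxb9 and Hoxb13 above 0. Hoxb2, a hindbrain patterning gene, read -0.59 and -0.66 at 3 h, -0.92 and -1.26 at 8 h and -0.04 and -0.23 at 24 h of 5 mM. It was called at 8 h at 2.13-fold lower (log2 -1.09, SE 0.113, adjusted p = 0.000296), and the call was lost without replicate 2 of that condition (log2 -0.92) and without slide 3, which holds it. Hoxb3 was lower at all 3 times of 5 mM, with log2 ratios of -0.55, -0.55 and -0.50 (SE 0.0545), short of the fold threshold. Hoxb5 stood at -0.63, -0.88 and -0.20, Hoxb6 at -0.55, -0.69 and -0.42 and Hoxb7 at -0.63, -0.42 and -0.15, and of these 9 values all but those of Hoxb5 and Hoxb7 at 24 h had an adjusted p under 0.05. Hoxb4 was above the untreated level on both arrays at 3 h (0.10 and 0.74) and 24 h (0.40 and 0.39) and split at 8 h (0.22 and -0.35), with no adjusted p under 0.05.

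Hoxb13, the last gene of its cluster, which is known for its part in the prostate and the tail end of the spine, gave the largest HOX increase. Its log2 ratios were 0.61 and -0.38 at 3 h, 0.72 and 0.86 at 8 h and 1.46 and 1.68 at 24 h of 5 mM, and 0.28 and 0.55, 0.42 and 0.34, and 1.58 and 1.71 at 1 mM. The 4 arrays at 24 h lay above the other 8. It was called at 24 h at both concentrations, 2.97-fold higher at 5 mM (log2 1.57, SE 0.200, adjusted p = 0.000855) and 3.12-fold at 1 mM (log2 1.64, adjusted p = 0.00315). The difference between concentrations at 24 h was -0.07 with a 95% interval of -0.73 to 0.58. Its signal was weak, with mean log2 signals of 4.58 in the control and 6.15 in the MAA channel at 5 mM and 24 h. With normexp background correction (offset 50) the log2 ratio was 0.73 at 5 mM and 0.38 at 1 mM and neither was called, and the call at 1 mM was also lost without slide 2. At 8 h of 5 mM it was higher by adjusted p (log2 0.79, adjusted p = 0.0193), short of 2-fold. Hoxb9, which acts in the thoracic skeleton, was above 0 on all 12 arrays (0.04 to 0.79) and was called at 1 mM and 8 h (0.79 and 0.46, 1.54-fold higher, log2 0.62, SE 0.145, unadjusted p = 0.00302 and adjusted p = 0.0526 in limma's fit). That call was lost in 15 of 27 alternatives, among them without either of its own arrays.

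In HOXC, Hoxc6, Hoxc8 and Hoxc9 were called lower and Hoxc13 higher. Hoxc6, a thoracic patterning gene also active in the mammary gland, read -0.85 and -0.74 at 3 h, -0.63 and -0.98 at 8 h and -1.13 and -1.25 at 24 h of 5 mM. At 1 mM it read -0.12 and -0.05 and then 0.06 and -0.19, but -0.73 and -0.81 at 24 h. It was called at 24 h at both concentrations, 2.28-fold lower at 5 mM (log2 -1.19, SE 0.0997, adjusted p = 0.000135) and 1.71-fold lower at 1 mM (log2 -0.77, adjusted p = 0.00393). The call at 1 mM was lost without slide 1 or 2. Hoxc8, which gives motor neurons of the forelimb level their identity, read -0.41 and -0.54 at 3 h, -1.02 and -1.08 at 8 h and 0.02 and -0.21 at 24 h of 5 mM. Only the arrays at 8 h were past 2-fold, where the mean was 2.07-fold lower (log2 -1.05, SE 0.0843, adjusted p = 9.46e-05), a call lost with normexp and with the slide as a block. Hoxc9, which gives thoracic motor neurons theirs, read -0.66 and -1.0, -1.31 and -1.19, and -0.42 and -0.67, and was called at 8 h at 2.38-fold lower (log2 -1.25, SE 0.113, adjusted p = 0.000156).

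Hoxc13, a regulator of hair and nail keratins at the posterior end, stood at 0.24 and 0.22, -0.03 and 0.08, and 0.66 and 0.48 at 5 mM and at 0.36 and 0.14, 0.38 and 0.28, and 0.82 and 0.68 at 1 mM. It was called at 1 mM and 24 h, 1.68-fold higher (log2 0.75, SE 0.0806, adjusted p = 0.00193), but not without slide 1. It was 1.49-fold higher at 5 mM (log2 0.57, adjusted p = 0.00138), which is under the threshold of 2-fold used there. The difference between concentrations at 24 h was -0.18 (95% interval -0.45 to 0.09). Both probes of Hoxc10 were lower by adjusted p at 3 and 8 h of 5 mM (log2 -0.37 and -0.42, and -0.38 and -0.34) and near 0 at 24 h. Hoxc5 was lower by adjusted p at 3 h of 5 mM (log2 -0.88, SE 0.259, adjusted p = 0.0448), and the tests of its difference from 8 and 24 h did not pass (adjusted p = 0.396 and 0.319). Hoxc4 lay between -0.16 and 0.12 on all 12 arrays.

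In HOXD, Hoxd4 showed the lowest ratio of the 44 HOX probes and was the only HOX probe called at all 3 times of 5 mM. Hoxd4, like Hoxa4 a cervical patterning gene, read -1.58 and -1.57 at 3 h, -1.60 and -1.51 at 8 h and -1.39 and -1.26 at 24 h. At 1 mM it read -0.57 and -0.35, -0.08 and -0.39, and -0.45 and -0.07, and all 12 arrays were below 0. The mean was 2.97-fold lower at 3 h (log2 -1.57, SE 0.112, adjusted p = 8.83e-05), 2.93-fold at 8 h (log2 -1.55, adjusted p = 6.23e-05) and 2.51-fold at 24 h (log2 -1.33, adjusted p = 0.000139). Each of these 3 calls was kept in all of its 27 alternatives, as were those of Hoxa10, Hoxc9 and, at 5 mM, Hoxc6. Many of these alternatives, such as an array of another condition left out, do not change the ratio itself. Hoxd3, the neighbour of Hoxd4 on the anterior side and a gene of the first cervical vertebrae, read -0.66 and -1.04, -0.90 and -0.76, and -1.12 and -1.42 by probe A_51_P455040. It was called at 24 h at 2.41-fold lower (log2 -1.27, SE 0.128, adjusted p = 0.000291), a call lost without slide 3, and its values at 1 mM lay between -0.20 and 0.29. Both probes of Hoxd9, a hindlimb-level gene, were lower at all 3 times of 5 mM, with log2 ratios of -0.63, -0.55 and -0.46 and of -0.55, -0.46 and -0.54.

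**Figure D3:**
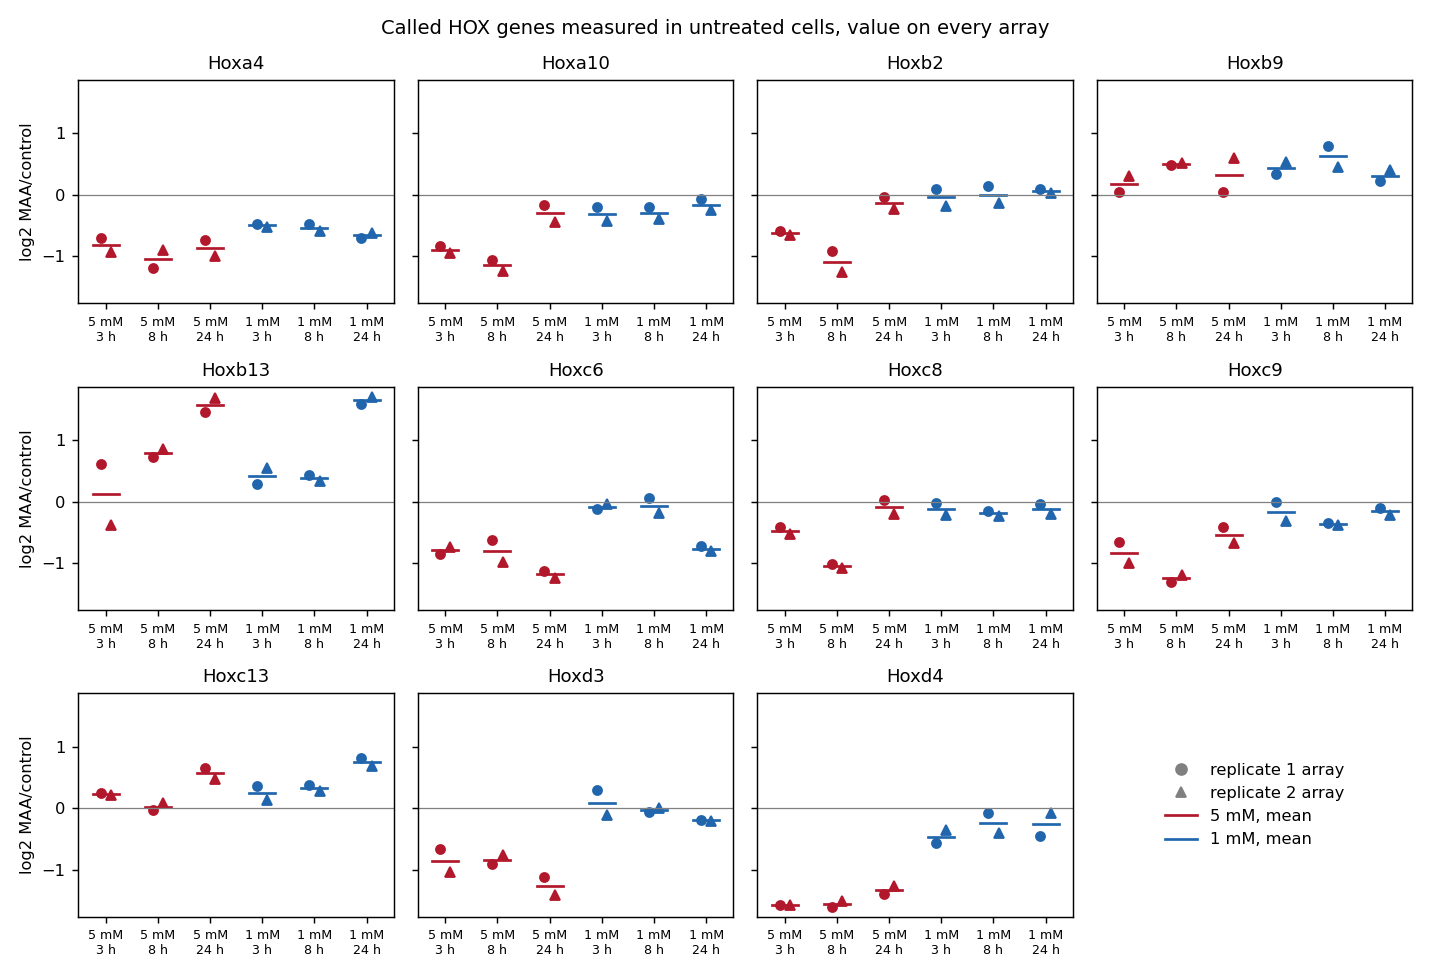
Log2 MAA/control on every array (circles replicate 1, triangles replicate 2, bars their mean) for the 11 called HOX genes expressed in untreated cells, in the 3 conditions at 5 mM (red) and the 3 at 1 mM (blue). Hoxd4 lies between -1.60 and -1.26 on all 6 arrays at 5 mM, and Hoxb13 rises to between 1.46 and 1.71 on the 4 arrays at 24 h.

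The sequences before the start sites of these 2 HOXD neighbours are shown because they hold the gene with the largest and most lasting decrease and the expressed gene next to it. Each is the 250 bases upstream of the RefSeq start site on the + strand of GRCm38.p6, with matches on either strand to the CCAAT box (CCAAT) or the TATA box (TATAAA) in capitals. In the RefSeq table the gene span of Hoxd3 takes in that of Hoxd4, and whether either probe reads both transcripts was not tested. The Hoxd4 sequence is at chr2:74721728-74721977 and the Hoxd3 sequence at chr2:74711743-74711992.
Hoxd4: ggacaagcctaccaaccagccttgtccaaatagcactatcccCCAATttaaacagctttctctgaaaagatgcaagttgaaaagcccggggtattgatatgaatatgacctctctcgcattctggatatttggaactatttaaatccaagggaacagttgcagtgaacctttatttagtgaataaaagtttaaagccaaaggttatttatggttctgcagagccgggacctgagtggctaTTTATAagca
Hoxd3: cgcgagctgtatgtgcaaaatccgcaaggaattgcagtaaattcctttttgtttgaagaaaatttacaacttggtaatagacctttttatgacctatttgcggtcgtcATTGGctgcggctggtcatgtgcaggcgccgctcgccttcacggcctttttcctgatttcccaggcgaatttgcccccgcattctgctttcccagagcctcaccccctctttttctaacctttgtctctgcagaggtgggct

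The Hoxd4 sequence held 3 CG pairs and 40.4% G and C, and that of Hoxd3 12 CG pairs and 49.2%, where the median of all 32851 promoters in the table was 6 pairs and 52.4%. Over windows of this length a CCAAT box was found in 33.8% of all promoters and in 13 of the 23 listed for 21 HOX genes, and a TATA box in 12.4% and in 4 of 23. A GC box (GGGCGG) was in neither sequence, in 32.7% of all promoters and in 10 of 23. The letters GCGNGGGCG, to which EGR factors bind, were in neither, in 4.70% of all and in 2 of 23 (Hoxa13 and Hoxb8), and the HOX-PBX letters TGATNNAT in neither, in 7.68% of all and in 4 of 23. These are matches of letters and were not tested against the ratios.

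Of the called probes, 3 read signals too weak for a fold, or for more than a lower limit. Hoxd10, which acts in lumbar motor neurons, read 1.43 and 0.62 at 3 h of 5 mM and was called there (log2 1.02, adjusted p = 0.00894), but its control was above background on 0 of these 2 arrays, which leaves an increase of at least 1.29-fold. It was below 0 at 8 h (-0.41 and -0.07) and above at 24 h (0.61 and 0.43). The second probe of Hoxb8 (A_52_P312043) was called at 3 h of 5 mM and the second of Hoxa4 (A_52_P638382) at 24 h of 5 mM, where neither channel was well above background on either array. No fold is given for these. With normexp none of these 3 calls held, and those of Hoxd10 and Hoxb8 were also lost without replicate 1 of that condition and without any 1 slide.

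Of the 7 genes with 2 probes, 3 had probes that disagreed in a call. Hoxa4 is one of them, its weak probe being at -0.22 and -0.09 at 8 h of 5 mM where the strong one was called. The strong probe of Hoxb8 (A_51_P402686), a gene of myeloid cells and the spinal cord, was above 0 on all 12 arrays (0.11 to 0.80), was called nowhere, and had an adjusted p under 0.05 at 5 mM and 24 h (log2 0.60, SE 0.183, adjusted p = 0.0416). The weak probe of Hoxd3 (A_52_P209132) read -0.70 and -1.11 at 24 h of 5 mM (log2 -0.91, adjusted p = 0.0115), in the direction of the strong one but short of 2-fold, and was above background in untreated cells on 3 of 12 arrays. The probes of Hoxa3, Hoxc10 and Hoxd9 were alike in their calls, all without one, and those of Hoxa13 read no signal. Hoxb1, Hoxc12 and Hoxd1, also without signal, had mean log2 ratios between -0.26 and 0.17 in every condition. The other genes without signal ranged more widely, from -0.66 to 0.27 for Hoxa13, -0.73 to 0.03 for Hoxd12 and -0.17 to 0.41 for Hoxd13.

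Whether 5 mM and 1 mM differed was tested directly. At an adjusted p under 0.05 the log2 ratios differed for 6 of 44 HOX probes at 3 h (13.6%, with 3.40% of all probes), 13 at 8 h (29.5%, with 10.1%) and 4 at 24 h (9.09%, with 8.41%). In the main fit the share was thus above that of all probes at 3 and 8 h and close to it at 24 h. These HOX probes were all expressed in untreated cells. The share of all expressed probes was not computed for these differences or for those between times. All 6 at 3 h and all 13 at 8 h were lower at 5 mM. The 6 at 3 h were Hoxb3, Hoxb7, Hoxc6, Hoxd3, Hoxd4 and Hoxd9. Those at 8 h were the same 6 with Hoxa10, Hoxb2, Hoxb5, Hoxb6, Hoxc8, Hoxc9 and Hoxc10. Hoxd4 differed at all 3 times, by -1.11 (95% interval -1.48 to -0.74), -1.31 (-1.68 to -0.94) and -1.07 (-1.44 to -0.70), and Hoxd3 and Hoxb3 did as well. With array medians centred such probes numbered 0, 7 and 2, and without any 1 array 0 to 2, 1 to 12 and 0 to 4. With replicate number added to the model as a block, more HOX probes differed at each time. The share of all probes was not computed in that model.

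**Figure D4:**
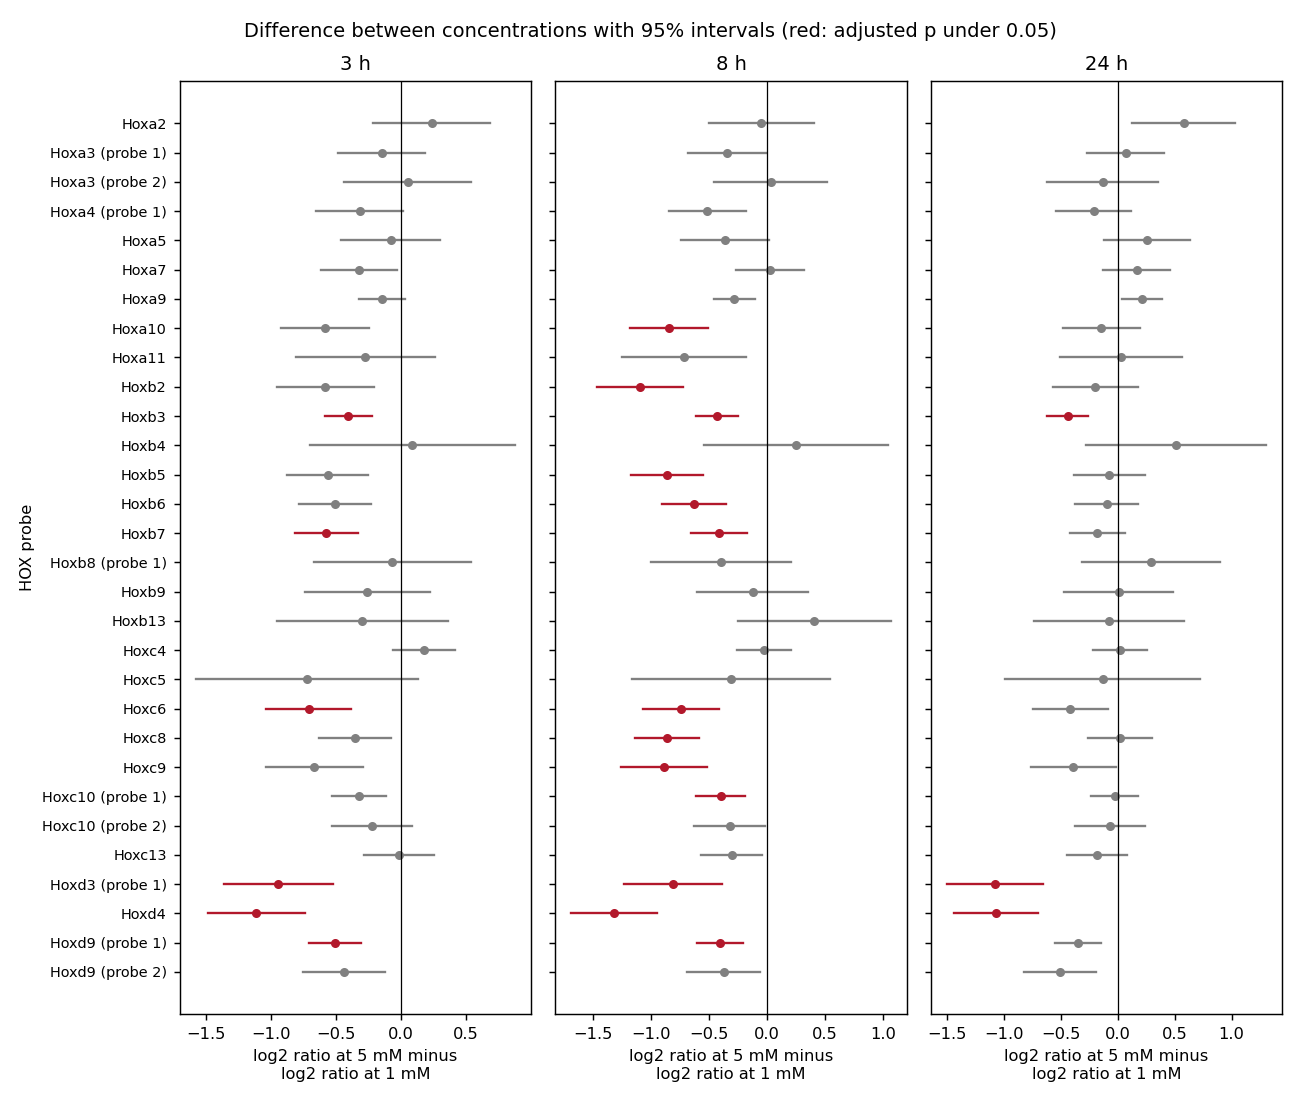
Difference between the log2 ratios at 5 mM and 1 mM (points) with 95% intervals (lines) for HOX probes expressed in untreated cells, at 3, 8 and 24 h, in red where the adjusted p was under 0.05. Hoxd4 lies at -1.11, -1.31 and -1.07, and Hoxb13 at 24 h at -0.07 with an interval across 0.

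The response to 5 mM was also compared between times. In the main fit the share of HOX probes that differed was above that of all probes from 8 to 24 h alone. It lay close to or below that share in the other comparisons, and these gaps were not tested. Between 3 and 8 h 1 HOX probe differed (2.27%, with 5.10% of all probes), that of Hoxc8, which was lower at 8 h by -0.58 (95% interval -0.86 to -0.30). From 8 to 24 h 9 differed (20.5%, with 8.91% of all probes). Of these, 8 were higher at 24 h, namely Hoxa9, Hoxa10, Hoxb2, Hoxb5, Hoxc8, Hoxc9, Hoxc10 and Hoxc13, and all of these but Hoxc13 had been lower than untreated at 8 h. Hoxc8 was higher by 0.95 (0.68 to 1.23, adjusted p = 0.00465) and Hoxb2 also by 0.95 (0.58 to 1.32, adjusted p = 0.0130). The ninth was the weak Hoxa4 probe. From 3 to 24 h 6 differed (13.6%, with 15.8% of all probes), with Hoxa9, Hoxa10, Hoxb7, Hoxb13 and Hoxc10 higher at 24 h and the weak Hoxb8 probe lower. For Hoxb13 this difference was 1.45 (0.80 to 2.11, adjusted p = 0.0133). Hoxd4 did not pass in any of these comparisons, with differences of 0.02 (-0.35 to 0.39), 0.23 (-0.14 to 0.60) and 0.24 (-0.13 to 0.62). The counts were 0, 6 and 2 with medians centred, and 0 to 1, 1 to 9 and 0 to 5 without any 1 array. With replicate number added to the model as a block they were higher in each comparison. The share of all probes was not computed in that model.

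Genes that act with or upon HOX genes, or lie beside them, were read in 7 lists, whose counts of called probes stand against the shares of all probes called given above (3.76%, 5.55% and 5.62% at 5 mM). Of 8 genes of TALE cofactors on the array (13 probes), Pbx3 was called, lower at 24 h of 5 mM (log2 -1.17, SE 0.0923, adjusted p = 0.000102), and the list's median was -0.21, -0.38 and -0.15 at the 3 times of 5 mM. Of 26 Polycomb genes (41 probes), Bmi1, a member of repressive complex PRC1, was called lower at 8 h by both probes (log2 -1.42 and -1.16). At 24 h it was called by 1 of them (log2 -1.17), the other being lower but short of 2-fold (log2 -0.95, adjusted p = 6.30e-05). At 3 h the probes read -0.90 and -0.68 and were not called. Cbx7, another PRC1 gene, was higher at 8 h (log2 1.48) and Rbbp4, which serves PRC2 and other complexes, at 24 h by 1 of its 3 probes (log2 1.03), the others reading 0.11 and -0.03. The list's median was -0.18, 0.02 and 0.03. Of 11 trithorax and H3K27 demethylase genes (19 probes) 0 were called, and of 6 CDX and ParaHox genes also 0.

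Of 17 retinoic acid genes (22 probes), Cyp26b1, which breaks retinoic acid down, was called higher at all 3 times of 5 mM, by at least 2.17-fold at 3 h and at log2 ratios of 1.91 and 1.58 at 8 and 24 h. Aldh1a2, a retinoic acid synthase, was lower at 8 h by at least 2.17-fold, and Dhrs3, a retinaldehyde reductase, by 1.09 on the log2 scale. At 1 mM and 24 h both were called higher (log2 1.16 for Aldh1a2, 0.77 and 0.60 for the 2 probes of Dhrs3). In that condition 6 of the list's 22 probes were called, with 4.68% of all probes. The other 3 are of genes named after their values were seen, with the retinoic acid receptor gene Rarb (log2 2.51, adjusted p = 0.000371, control above background on 1 of 2 arrays) and the synthase gene Aldh1a3 (log2 0.97, adjusted p = 0.0443) higher and the synthase gene Aldh1a1 lower (log2 -0.88, adjusted p = 0.00329). Aldh1a3 was also called at 1 mM and 8 h (log2 1.00, adjusted p = 0.0614). The list's median at 5 mM was -0.22, 0.01 and 0.07. Of 6 upstream regulators (8 probes), Egr2 (Krox20), which drives Hoxa2 and Hoxb2 in the hindbrain, was higher at all 3 times of 5 mM (log2 1.70, 1.63 and 1.69) and at 3 and 24 h of 1 mM (log2 1.01 and 0.65). Bmp4 was lower at 3 h of 5 mM (log2 -1.15), and the list's median at 5 mM was -0.14, 0.44 and 0.11.

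Of 17 genes that flank the clusters or lie inside them (26 probes), Nfe2l3, beside HOXA, was higher at 8 and 24 h of 5 mM (log2 1.09 and 2.08) and at 8 h of 1 mM (log2 0.60) by 1 of its 2 probes. The other probe, also above background on all 12 arrays, read 0.07, 0.37 and 0.05 in these conditions and was not called. Ttll6, near Hoxb13, was higher at 24 h of 5 mM by at least 1.83-fold. The other 15 were called in none of the 6 conditions, and the list's median at 5 mM was -0.02, 0.14 and 0.09.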

How the data were processed

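Per the file headers, the authors deposited the output of Agilent Feature Extraction 9.5.3.1 for 12 2-colour arrays, in which signal intensities were background-corrected and dye-normalized by a linear and LOWESS method. They also deposited a table of log10 ratios, used as an alternative. Control spots and spots flagged as outliers (124 to 208 per array) were left out, which leaves 41174 probes, and log2 ratios were taken from the processed intensities and turned to MAA over control. A single limma model (version 3.58.1, R 4.3.3) with a coefficient for each condition took in the 12 arrays and left 6 residual degrees of freedom, to which the shared prior added 1.52. HOX probes were named through transcript accessions. A probe counted as expressed in untreated cells where the software's well-above-background flag was set in the control channel on all 12 arrays. A lower limit sets the brighter channel against the dimmest well-above-background signal, after Aquantile scaling. Genes named are the HOX probes called, those expressed, those whose probes disagree, and genes called at 5 mM in 7 related lists. Counts take in all members, of which 1 is not reported here by name. Members, lists and tests were chosen with earlier results of these data known. Alternatives were other background corrections, scalings, filters, thresholds, blocks and left-out arrays. The limma fit and the rule for calls alone were tested on simulated data. Their noise was independent between arrays and held no deviation shared by replicate or slide. The number of arrays limits the precision. Figures used matplotlib 3.10.9.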

Additional observations from a re-analysis of the deposited data

Results flagged for a closer look

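Each HOX probe named here had a log2 ratio that differed between concentrations or times in limma's contrast (adjusted p under 0.05). The values are differences of log2 ratios.

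Between 5 mM and 1 mM at 3 h the differences (5 mM minus 1 mM) were Hoxd4 (-1.11), Hoxd3 (-0.94), Hoxc6 (-0.71), Hoxb7 (-0.57), Hoxd9 (-0.51) and Hoxb3 (-0.41). At 8 h they were Hoxd4 (-1.31), Hoxb2 (-1.09), Hoxc9 (-0.88), Hoxb5 (-0.86), Hoxc8 (-0.86), Hoxa10 (-0.84), Hoxd3 (-0.81), Hoxc6 (-0.74), Hoxb6 (-0.62), Hoxb3 (-0.43), Hoxb7 (-0.41), Hoxd9 (-0.40) and Hoxc10 (-0.40). At 24 h they included Hoxd3 (-1.08), Hoxd4 (-1.07) and Hoxb3 (-0.44).

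Between times at 5 mM, the difference of 8 h minus 3 h was Hoxc8 (-0.58). Those of 24 h minus 8 h were Hoxa4 (-1.18), Hoxc10 (0.37), Hoxa9 (0.43), Hoxc13 (0.54), Hoxb5 (0.67), Hoxc9 (0.70), Hoxa10 (0.85), Hoxb2 (0.95) and Hoxc8 (0.95), the Hoxa4 value being that of its weak probe. Those of 24 h minus 3 h were Hoxb8 (-1.16), Hoxa9 (0.28), Hoxc10 (0.33), Hoxb7 (0.48), Hoxa10 (0.59) and Hoxb13 (1.45), the Hoxb8 value being that of its weak probe.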

How the results depend on the processing

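Counts are of HOX probes called at 5 mM at 3, 8 and 24 h and at 1 mM at 3, 8 and 24 h, which were 3, 6, 5, 0, 1 and 4. With normexp and loess they were 1, 4, 3, 0, 0 and 2. With the slide as a block they were 1, 5, 5, 0, 0 and 5. At 1.5-fold for both concentrations 12, 11 and 7 were called at 5 mM, and at 2-fold for both 0, 0 and 1 at 1 mM. The 1 call at 1 mM and 8 h (Hoxb9) fell to 0 with array medians centred, with adjusted p, with the arrays of 1 concentration alone and without any slide. Without slide 1 the count at 1 mM and 24 h was 1, without slide 2 it was also 1 and that at 5 mM and 3 h was 1, and without slide 3 the latter was 1 (an alternative added after seeing the data). The series matrix and kept outlier spots left all 6 counts as they were. Without any 1 array the counts were 3 to 3, 5 to 6, 5 to 6, 0 to 0, 0 to 1 and 3 to 5.

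Replicate numbers follow the dye orientation. Over all probes the differences between replicates correlated at 0.0750 to 0.514 in 15 pairs of conditions, 14 of them over 0.1. Most conditions thus shared a deviation by replicate number, and so by dye orientation, for which the main model has no term. As not every pair passed 0.1, the numbers were not taken as pairs in that model. Whether the dyes gave the shared deviation was not tested. With a replicate block the counts were 3, 6, 5, 0, 1 and 5. The differing HOX probes rose from 6, 13 and 4 to 15, 17 and 8 between doses. Between times (8 minus 3, 24 minus 8 and 24 minus 3 h) they rose from 1, 9 and 6 to 5, 12 and 9. The share of expressed probes lower at 5 mM (adjusted p under 0.05) also rose, from 19.9%, 24.2% and 24.8% to 26.6%, 30.4% and 32.2%. Shares of all probes called or differing were not computed under the alternatives. With medians centred the differing HOX probes were 0, 7 and 2, and 0, 6 and 2. With normexp and loess they were 8, 14 and 7, and 1, 10 and 10, and with the slide as a block 9, 16 and 7, and 1, 11 and 10. Leaving out 1 array gave 0 to 2, 1 to 12, 0 to 4, 0 to 1, 1 to 9 and 0 to 5.

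HOX probes expressed in untreated cells numbered 31, and 31 to 37 under 5 other rules. Of the recomputed values of called probes, 459 kept their call, 50 lost it and 0 turned direction. Many alternatives, such as other thresholds or an array of another condition left out, leave the log2 ratio of a call unchanged. Its direction could not turn in these. The causes were not tested, and signal over background limits what can be said of weak genes.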
